A study of Mus musculus with 4 samples.

Results

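The proteasome subunit genes of mouse intestinal group 3 innate lymphoid cells (ILC3s) were described from RNA sequencing. The members were all genes whose name starts with Psma, Psmb, Psmc, Psmd, Psme, Psmf or Psmg and a digit, without names that mark a pseudogene, in both deposited joint tables. The rule found 48 genes among 15242 in the table of knockout and wild-type cells, and the same 48 among 12546 in the table of the CD93 sort. The study made 4 libraries, 1 per group, all from the small intestine of mice at steady state. The first pair was Il17d-KO ILC3s, from mice without the cytokine IL-17D, and wild-type (WT) ILC3s. The second pair was CD93+ and CD93- ILC3s, both from WT mice per the series design text; CD93 is a surface glycoprotein. The sort gate, per the series design text, took live cells that were low for CD45, lacked CD3 among other markers and were high for CD90.2, and per the labels a suspension was kept 12 h without stimulation before the CD93 sort; this protocol stands on all 4 libraries. The sources used here give no age, no number of mice per library and no word on pooling. The genotype labels could not be set against the targeted gene, since Il17d was not analysed here.

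The proteasome is the protease that degrades proteins tagged with ubiquitin. Its 20S core is a barrel of alpha rings around beta rings, and some beta subunits carry the catalytic sites. The 19S cap, made of ATPases and non-ATPase subunits, binds ubiquitin, unfolds the substrate and feeds it into the core. Interferons and lymphoid cells favour the immunoproteasome, in which Psmb8, Psmb9 and Psmb10 replace the constitutive catalytic subunits Psmb5, Psmb6 and Psmb7, and Psme1 and Psme2 form an activator ring that takes the place of a cap. Peptides made in this way are loaded on MHC class I. The level of most subunit genes is known to be raised together by the transcription factor NRF1, the product of Nfe2l1, when proteasome capacity is short.

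Levels are in FPKM, which divides the fragments of a gene by its length in kilobases and by the size of the library. Levels of different genes can be compared within a library only as far as that length fits the transcripts present. A difference is log2 of the ratio of FPKM + 1 between the 2 libraries of a pair, and 2-fold is the limit used for counts. Folds of single genes are ratios of FPKM, and parentheses after a fold hold the 95% exact counting interval from reads recovered from FPKM and gene length. Each group is 1 library, which leaves no spread between replicates and allows no test. The intervals cover counting error only and compare libraries, not conditions. In bulk libraries, fewer cells of a type and less RNA per cell cannot be told apart. The 2 tables were made with different gene sets, so values are compared within a table only.

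The totals behind the scaling to library size were 27002581 for the KO library, 26087274 for WT, 11712846 for CD93-positive cells and 11790580 for CD93-negative cells. All 9 ILC3 markers had an FPKM of at least 1 in each library. The 4 T cell markers summed to 258 FPKM in KO against 131 in WT, and the 5 of exocrine pancreas to 682 and 0.235, with 4 of these 5 at 0 in WT. In the CD93 pair, 3 T cell markers in the table summed to 2.33 FPKM in CD93-positive against 9.57 in CD93-negative cells, 4 epithelial ones to 18.9 and 33.4 and the 5 pancreatic ones to 129 and 196, with none of them at 0 in either library. For 3 epithelial markers in the KO and WT table the sums were 15.4 and 3.06, and for the 2 of 5 macrophage and dendritic cell markers found there they were 55.5 and 11.7. The 4 B cell markers summed to 92.7 FPKM in KO and 44.3 in WT, and 2 endothelial ones to 17.4 and 12.0. The part of these other cell types in the differences below was not tested. Cd93 itself had 155 FPKM in CD93-positive against 79.9 in CD93-negative cells.

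CD93-positive ILC3s had higher values than CD93-negative ILC3s for 45 of the 48 proteasome genes. The background is 54.4% of the 10117 measured genes, those that reach 1 FPKM in either library. The median difference of the 48 genes was 0.35, and that of all measured genes was 0.04. The shift was small and even: the interquartile range of the members was 0.17 to 0.46, and none of the 48 was 2-fold apart, where 2.49% of all genes passed this limit upwards and 1.94% downwards. At 1.5-fold, 3 members were higher and 0 lower, against 7.62% and 6.92% of all genes. All 31 constitutive subunits of core and cap were higher, with a median of 0.36. Of the 48 counting intervals, 39 lay above 1 and 1 below, and over all genes with recovered reads these shares were 34.2% and 25.8%. Whether an interval spans 1 also depends on the number of reads, for which members and all genes were not matched in either pair. Giving each library the same summed FPKM lowers every CD93-positive value relative to CD93-negative. On that scale, called the common sum below, 37 of 48 members and 29 of the 31 constitutive subunits were higher, beside 35.7% of all genes, and the median difference was 0.18, beside -0.12 for all genes.

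The KO and WT libraries showed no common direction of the proteasome genes. Of the 48, 22 were higher and 26 lower in KO, beside 50.5% and 49.5% of the 12376 measured genes. Their median difference was -0.04, and it was 0.11 with a common sum (28 of 48 higher, beside 58.1% of all genes), which moved the median of all genes from 0.01 to 0.17. Psmd3 was at least 2-fold higher and Psme2 and Psme3 were at least 2-fold lower. These are 1 and 2 of 48 genes, where 16.6% and 12.7% of all measured genes passed the same limits. Restricted to 5 FPKM or more in either library, the shares were 12.9% and 8.67%. At 1.5-fold, 8 members were higher and 7 lower, against 26.5% and 22.9% of all genes. The members ranged from -1.37 (Psme3) to 1.45 (Psmd3), against -0.42 to 0.76 in the CD93 pair. Whole reads could be recovered for 43 members in this pair. Of their intervals 14 lay above 1, 19 below and 10 spanned it, and over all such genes 46% lay above and 41.3% below. The 5 without reads (Psma7, Psmb1, Psmb8, Psmb9 and Psmg2) are given as FPKM without an interval.

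**Figure D1:**
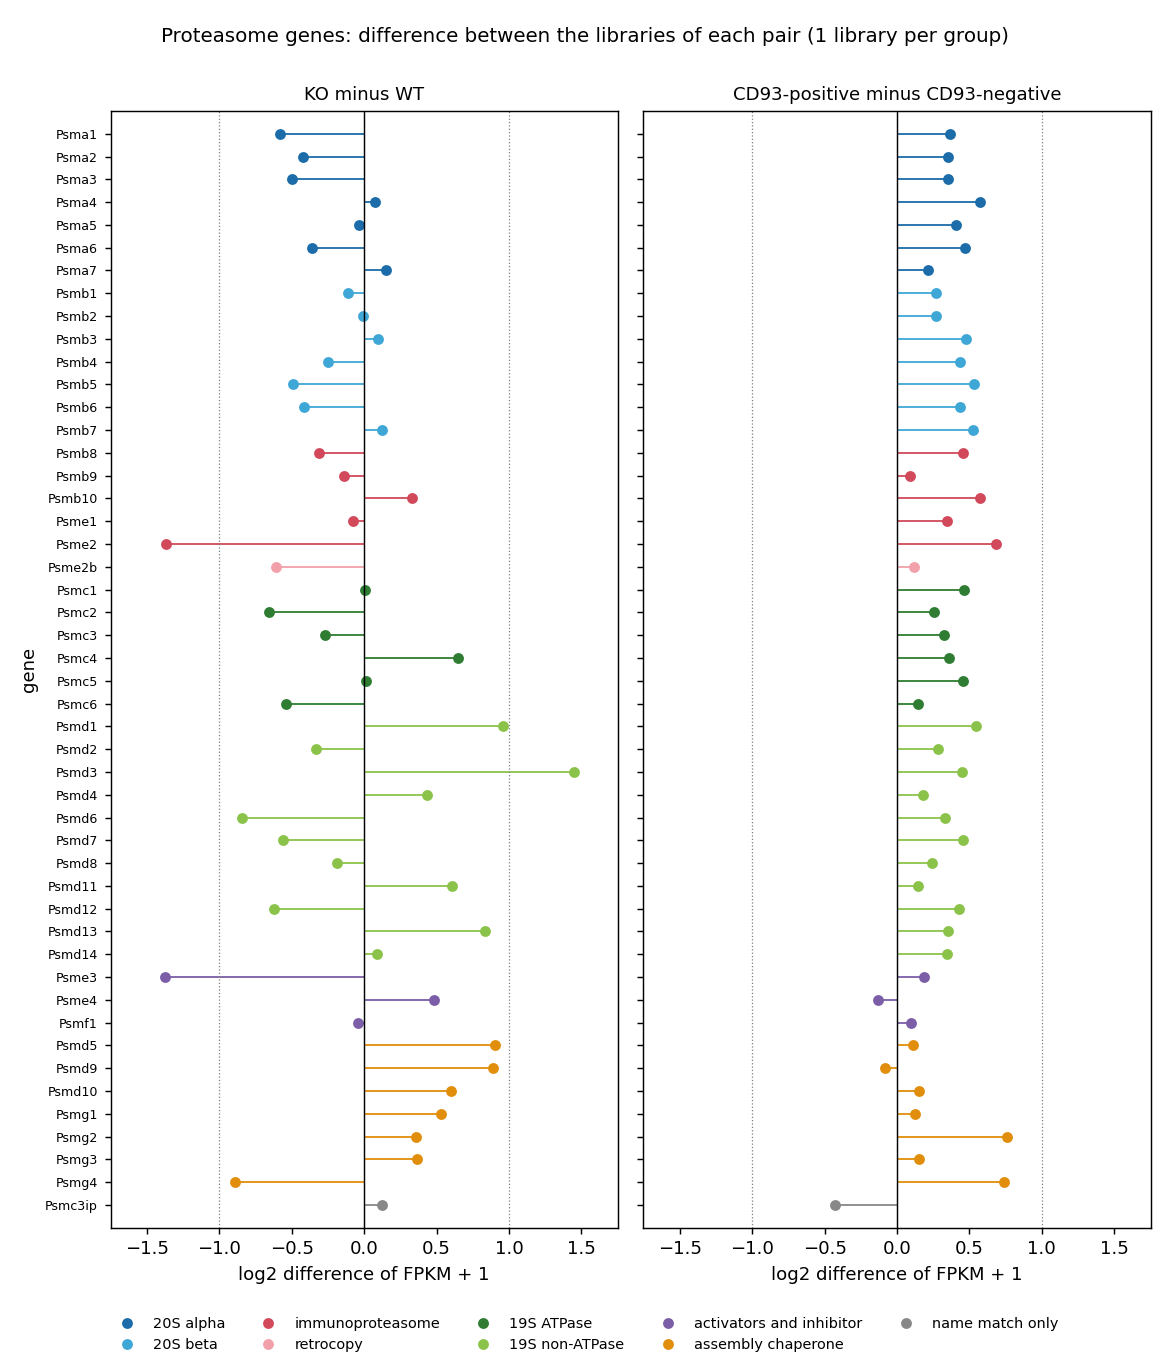
Difference in log2 of FPKM + 1 (x axis) for each of the 48 genes (y axis), coloured by role, for KO minus WT (left) and CD93-positive minus CD93-negative (right); dotted lines mark 2-fold and each point is 1 library against 1 library. In the CD93 panel 45 of 48 points lie right of 0 and none reaches 2-fold; in the KO and WT panel 22 lie right and 26 left of 0, and 3 pass 2-fold.

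**Figure D2:**
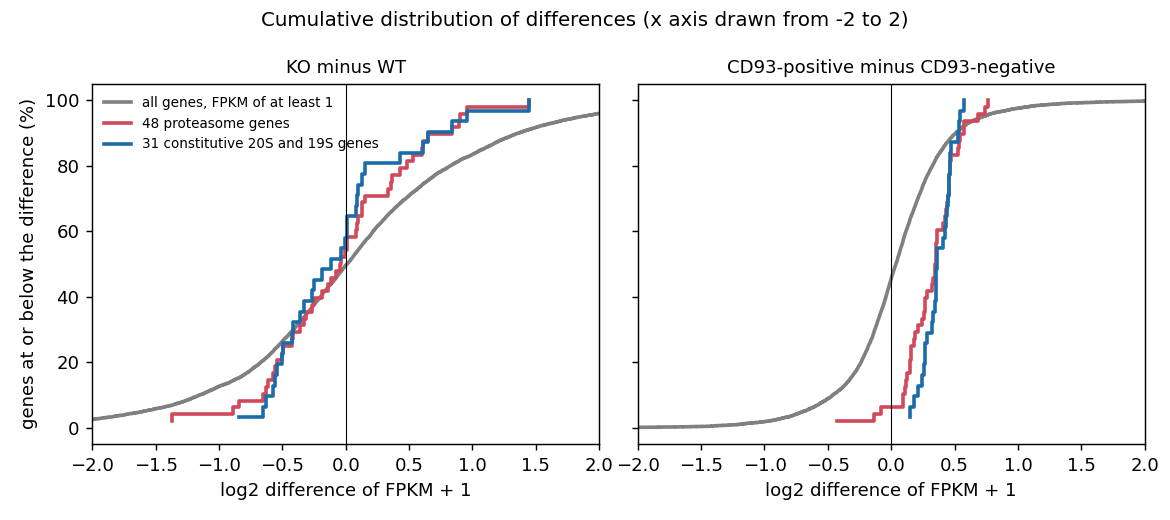
Cumulative share of genes in percent (y axis) by log2 difference of FPKM + 1 (x axis) for all genes with an FPKM of at least 1 (grey), the 48 proteasome genes (red) and the 31 constitutive core and cap genes (blue). In the CD93 pair the red and blue curves lie to the right of the grey one through most of the plot (medians 0.35, 0.36 and 0.04), and in the KO and WT pair they cross it left of 0.

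The alpha subunits form the outer rings of the core and its gate. All 7 were higher in CD93-positive ILC3s, with differences from 0.21 to 0.58. Psma4 lay at the top of them, at 49.4 FPKM in CD93-positive against 32.8 in CD93-negative cells, 1.51-fold higher (1.38 to 1.64). Psma7 lay at the bottom with 40.1 and 34.4, 1.16-fold higher (1.08 to 1.26). The interval of Psma7, the smallest of these 7 differences, thus also lay above 1. For KO against WT, 5 of the 7 were lower in KO, beside 49.5% of all genes, with a median of -0.36. With a common sum 3 of 7 were higher, beside 58.1% of all genes, and the median was -0.19. Psma1 had 16.5 FPKM in KO against 25.1 in WT, 1.52-fold lower (1.42 to 1.63), and Psma3 had 31.2 and 44.5, 1.43-fold lower (1.36 to 1.49). Psma7 was the highest relative to WT, with 65.8 in KO and 59.3 in WT.

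The constitutive beta subunits include the catalytic ones, Psmb5 (chymotrypsin-like activity), Psmb6 (caspase-like) and Psmb7 (trypsin-like). All 7 beta genes were higher in CD93-positive ILC3s. Psmb5 stood at 74.7 FPKM in CD93-positive against 51.4 in CD93-negative cells, 1.45-fold higher (1.30 to 1.62), and had the largest difference of the group on the scale of FPKM + 1. Psmb7 had 18.9 and 12.8 (1.47-fold, 1.32 to 1.652), Psmb6 had 59.3 and 43.7 (1.36-fold, 1.25 to 1.48), and Psmb2 had 54.3 and 44.9 (1.21-fold, 1.09 to 1.34), the smallest difference of the group. The 3 catalytic genes thus lay between 1.36-fold and 1.47-fold. In the KO and WT pair 5 of 7 were lower in KO, beside 49.5% of all genes, with a median of -0.11. With a common sum 4 of 7 were higher, beside 58.1% of all genes, and the median was 0.06. Psmb5 had 15.4 FPKM in KO against 22.1 in WT, 1.43-fold lower (1.25 to 1.64). Psmb6 had 74.0 and 99.1, 1.34-fold lower (1.28 to 1.40). The interval of Psmb7 spanned 1, with 4.61 in KO against 4.15 in WT, as did that of Psmb2, with 200.3 and 201. Over alpha and beta genes, 10 of 14 were lower in KO, beside 49.5% of all genes. With a common sum 7 of 14 were lower, where 58.1% of all genes were higher.

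Subunits of the core are built into the particle in equal numbers, but their FPKM within a library was far from equal. In the WT library the 14 core genes ran from 4.15 (Psmb7) to 201 (Psmb2), a 48.5-fold range, and in KO from 4.61 to 200.3, a 43.4-fold range with the same genes at the ends. The range was 4.96-fold in CD93-positive and 5.27-fold in CD93-negative ILC3s, from Psmb7 to Psma6 in both. FPKM depends on the gene models used. The exons of Psmb7 together span 3421 bases, and its longest coding transcript has 1160. For Psmb5 both lengths are 899. Some subunits also have near-identical processed pseudogenes. Of all the stretches of 50 bases in the longest coding transcript (GENCODE M21), 12 of the 48 members shared at least 10% with transcripts of another gene, and 27 shared none. For Psmb5 the share was 57.1%, for Psmb3 55.8% and for Psma5 54.5%. The 12 members had a median FPKM of 12.9 in WT and 12.9 in KO, against 22.3 and 16.1 for the other 36. In the CD93 table the order was opposite, with 67.2 and 47.7 for the 12 against 32.2 and 26.9 for the 36. Pseudogene names were tabulated in the first table, where Psmb6-ps2 had 399 FPKM in WT and 319 in KO, above Psmb6 itself. No source used here states the read length or the treatment of reads with several matches, and the part of shared sequence in these levels was not tested. The differences within a pair were alike in both sets: in the CD93 pair the median was 0.38 for the 12, all of them higher, and 0.34 for the 36, of which 33 were higher.

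**Figure D3:**
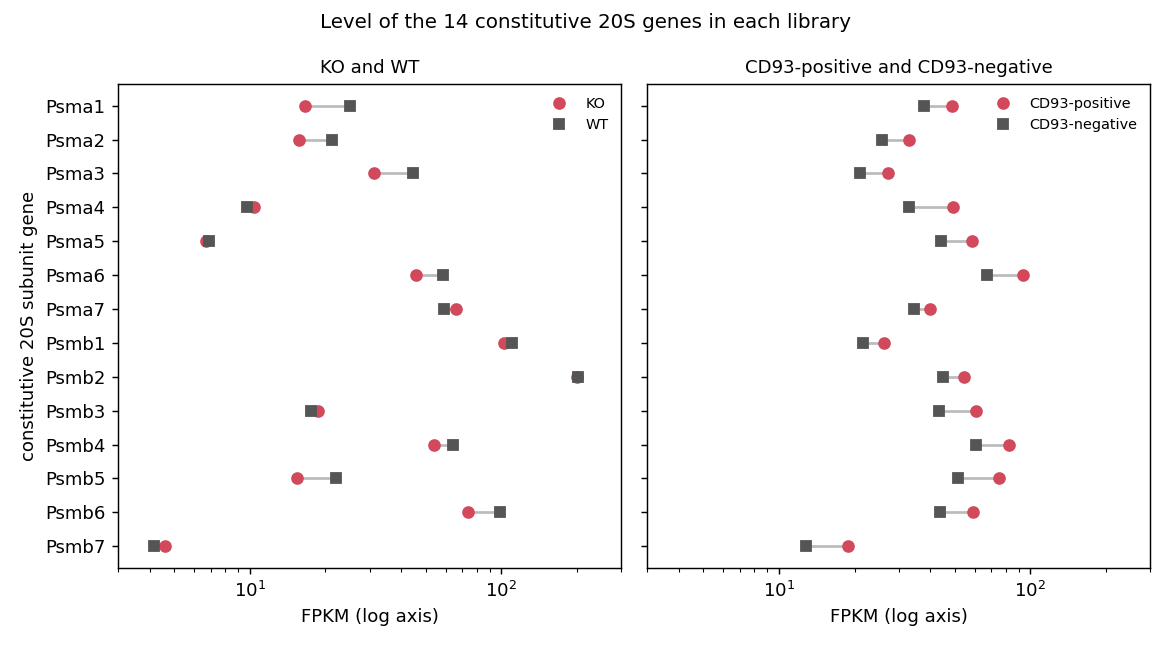
FPKM on a log axis (x axis) of the 14 constitutive core genes (y axis) in KO (circles) and WT (squares), left, and in CD93-positive (circles) and CD93-negative ILC3s (squares), right, with 1 library per symbol. In the right panel every circle lies to the right of its square, and the genes spread over a 48.5-fold range in WT but a 5.27-fold range in CD93-negative ILC3s.

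All 5 immunoproteasome genes had higher values in CD93-positive ILC3s, with a median difference of 0.46, and Psmb9 had the smallest. With a common sum 4 of 5 were higher, beside 35.7% of all genes, and Psmb9 turned to -0.08. Coordinates are those of GENCODE M21. Psmb8 (ENSMUSG00000024338.15; mm10 chromosome 17, 34197721 to 34201454, plus strand) stood at 86.8 FPKM in CD93-positive against 62.9 in CD93-negative cells, 1.38-fold higher (1.31 to 1.45). Psmb10 had 106.0 and 70.8, 1.498-fold higher (1.40 to 1.603). Psmb9 (ENSMUSG00000096727.3; chromosome 17, 34181987 to 34187764, minus strand) had 34.7 and 32.6, 1.07-fold, and its interval (0.990 to 1.15) spanned 1. Psme1 had 135 and 106, 1.27-fold higher (1.21 to 1.34), and Psme2 157 and 97.6, 1.61-fold higher (1.52 to 1.70). Psmb9 thus lay nearest to 1, and the value of Psme2 is uncertain because of its copy Psme2b, described below. In the first pair Psmb10 had 78.7 in KO against 62.3 in WT, 1.26-fold higher (1.202 to 1.33), while Psmb8 (65.5 and 81.5), Psmb9 (12.0 and 13.4) and Psme1 (21.1 and 22.3; 1.06-fold lower, 0.979 to 1.15) were lower or near equal. The median of the 5 was -0.14, and 0.02 with a common sum.

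The FPKM of inducible and constitutive catalytic subunits was compared within a library, where the scaling to library size cancels. Gene length and the assignment of reads do not cancel. Psmb10 made up 84.9% of the summed FPKM of Psmb10 and Psmb7 in CD93-positive (83.8 to 85.9) and 84.7% in CD93-negative ILC3s (83.3 to 86.0). Psmb8 made up 53.7% (51.8 to 55.7) and 55.0% (52.7 to 57.4) of its pair with Psmb5. These intervals overlap for these 2 pairs. They hold the counting error of 1 library each, and the difference itself was not tested. Psmb9 was 36.9% of its pair with Psmb6 in CD93-positive (35.2 to 38.7) and 42.7% in CD93-negative ILC3s (40.7 to 44.8), and these intervals do not overlap. Between KO and WT, the shares were 94.5% in KO and 93.8% in WT for Psmb10, 80.9% and 78.7% for Psmb8, and 13.99% and 11.9% for Psmb9. All 3 were higher in KO, by 0.703 to 2.28 percentage points. The intervals of the Psmb10 shares, 93.9 to 94.98 in KO and 93.1 to 94.4 in WT, overlap, and Psmb8 and Psmb9 had no recovered reads. In all 4 libraries Psmb10 and Psmb8 had a higher FPKM than their constitutive partners and Psmb9 did not. Psmb5 shared 57.1% of its 50-base stretches with other genes, and Psmb8, Psmb9 and Psmb10 shared 0%. The part of shared sequence and of gene length in these ranks was not tested.

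**Figure D4:**
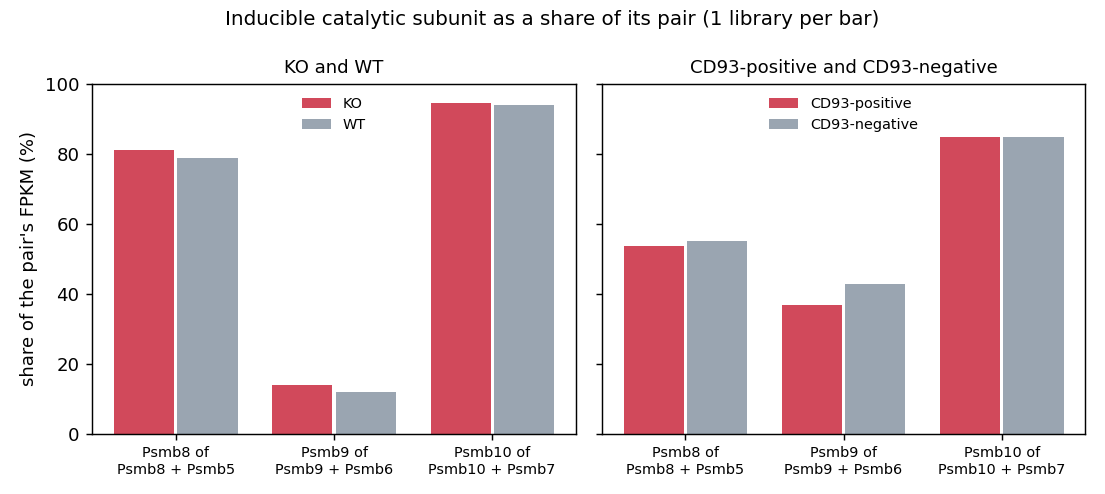
FPKM of the inducible subunit as a percentage of the sum with its constitutive partner (y axis) for the pairs with Psmb8, Psmb9 and Psmb10 (x axis), in KO and WT (left) and CD93-positive and CD93-negative ILC3s (right), 1 library per bar. The bars of a pair differ most for Psmb9 in the CD93 pair, 36.9% against 42.7%; the Psmb10 bars are within 0.703 percentage points in both panels.

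Psme2 needs to be read with Psme2b, which the naming rule also takes. Psme2 (ENSMUSG00000079197.10; mm10 chromosome 14, 55587441 to 55591113, minus strand) has 11 exons in its longest coding transcript. Psme2b (ENSMUSG00000078153.3; chromosome 11, 48945354 to 48946190, minus strand) has 1 exon and is annotated as protein-coding. Their coding sequences of 717 bases are 99.3% identical, with 5 mismatches, no gap and a longest identical run of 311 bases. Of the 50-base stretches, 59.3% of those in Psme2 and 69.3% of those in Psme2b occur in a transcript of another gene, nearly all of them in each other. The stretch with the most mismatches, 3 in 60 bases, is shown from coding position 484 to 543 of both, 5′ to 3′ from GENCODE M21, with the differing bases in capitals, since only a read over such a base can tell the genes apart there.
Psme2: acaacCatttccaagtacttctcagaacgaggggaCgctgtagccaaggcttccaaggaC
Psme2b: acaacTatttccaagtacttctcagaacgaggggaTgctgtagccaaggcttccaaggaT

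The 2 tables divided the reads of this pair in opposite ways. In KO, 45 reads were assigned to Psme2 and 12308 to Psme2b, and in WT 185 and 18172. Psme2 thus held 0.364% of the reads of the pair in KO (0.266 to 0.487, exact binomial) and 1.01% in WT (0.868 to 1.16). In the CD93 table it held 67.7% of them in CD93-positive (3246 and 1550 reads; 66.3 to 69.0) and 58.5% in CD93-negative ILC3s (2029 and 1439 reads; 56.8 to 60.2). Psme2 had the lowest FPKM of the 48 members in KO, 0.945, beside 4.02 in WT, and Psme2b the highest, 544.6 and 832. The 4.26-fold lower value of Psme2 in KO (3.06 to 6.03) therefore rests on few reads of a gene whose copy took nearly all. The summed reads of both genes were 1.54-fold lower in KO (1.503 to 1.57), as was Psme2b alone (1.53-fold, 1.49 to 1.56). In the CD93 pair the summed reads were 1.39-fold higher in CD93-positive ILC3s (1.33 to 1.45), and Psme2b alone had 158 and 146 FPKM, 1.08-fold (1.01 to 1.17), a difference that turned to -0.06 with a common sum. The value of each gene alone is uncertain in both tables. Without both genes, the 2-fold lower members of the KO and WT pair were 1, Psme3, in place of 2.

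**Figure D5:**
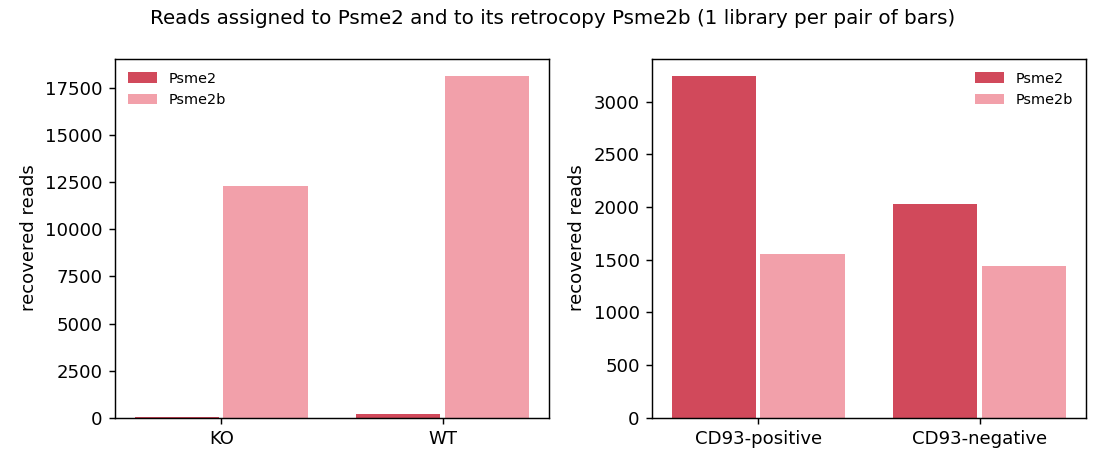
Recovered reads (y axis, own scale in each panel) assigned to Psme2 (dark) and to its single-exon copy Psme2b (light) in each library. In KO and WT nearly all reads stand at Psme2b (12308 and 18172), and in the CD93 pair Psme2 holds more than its copy (3246 and 1550, 2029 and 1439).

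The cap begins with 6 ATPases, which unfold the substrate. All 6 were higher in CD93-positive ILC3s. Psmc1 stood at 85.8 FPKM in CD93-positive against 61.9 in CD93-negative cells, 1.39-fold higher (1.29 to 1.49), and Psmc6 had 31.2 and 28.1, 1.11-fold (1.03 to 1.21), the ends of the group. For KO against WT, the 6 genes split evenly, 3 higher and 3 lower in KO. Psmc4 had 88.8 in KO against 56.2 in WT, 1.58-fold higher (1.51 to 1.652). Psmc2 had 21.03 and 33.6, 1.5996-fold lower (1.53 to 1.68). Psmc5 had 78.7 and 78.0, and its interval spanned 1 (0.958 to 1.06). The ATPases form 1 ring, and 2 of them thus stood about equally far apart in opposite directions.

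The 11 non-ATPase subunits of the cap include the ubiquitin receptor Psmd4, the deubiquitinase Psmd14, the large scaffold subunits Psmd1 and Psmd2 and the lid. Each of the 11 was higher in CD93-positive ILC3s, from 0.15 (Psmd11) to 0.54 (Psmd1). Psmd1 stood at 21.6 FPKM in CD93-positive against 14.5 in CD93-negative cells, 1.49-fold higher (1.39 to 1.603). Psmd11 had 20.3 and 18.2, 1.11-fold (1.03 to 1.199). With a common sum Psmd11 (-0.02) and the ATPase Psmc6 (-0.02) turned lower, the 2 of the 31 constitutive subunits that did. In the KO and WT pair the group was the most scattered of the cap and core, with 6 higher and 5 lower in KO. Psmd3, a lid subunit (ENSMUSG00000017221.14; mm10 chromosome 11, 98682554 to 98695979, plus strand), had 6.22 in KO against 1.64 in WT, 3.78-fold higher (3.25 to 4.42), from 834 and 213 reads. Psmd1 had 8.10 and 3.69, 2.20-fold higher (2.01 to 2.40), although its difference of 0.96 with the added 1 stayed below the limit. Psmd13 had 13.3 and 7.02, 1.90-fold higher (1.72 to 2.09). Psmd6, also of the lid, was the lowest, with 8.52 in KO against 16.0 in WT, 1.88-fold lower (1.71 to 2.08). Psmd3, Psmd13 and Psmd6 all belong to the lid, so genes of 1 subcomplex lay on both sides.

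Of the 2 activators outside the immunoproteasome and the inhibitor, 2 of 3 genes were higher in CD93-positive ILC3s, by small differences, beside 54.4% of all genes. Psme3, a nuclear activator, stood at 35.4 FPKM in CD93-positive against 30.9 in CD93-negative cells, 1.14-fold (1.05 to 1.24). Psme4, an activator linked to acetylated histones, was the only member whose interval lay below 1, with 14.1 and 15.5, 1.10-fold lower in CD93-positive ILC3s (1.03 to 1.19). Psmf1, named as an inhibitor, had 5.06 and 4.67, and its interval spanned 1 (0.935 to 1.26). The median of the 3 was 0.10, and -0.05 with a common sum, where 1 of 3 was higher, beside 35.7% of all genes. In the first pair Psme3 (ENSMUSG00000078652.9; chromosome 11, 101316213 to 101323537, plus strand) had 3.65 in KO against 11.1 in WT, 3.03-fold lower (2.65 to 3.47), from 291 and 851 reads. Psme4 had the opposite direction, with 8.01 and 5.44, 1.47-fold higher (1.37 to 1.59), and Psmf1 was near equal, with 12.1 and 12.5 (0.909 to 1.03).

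Assembly chaperones bind subunits during the building of core (Psmg1 to Psmg4) and cap base (Psmd5, Psmd9 and Psmd10) and leave the finished particle. Between KO and WT, they were the group farthest above WT, with 6 of 7 higher in KO, beside 50.5% of all genes, and a median of 0.53. The count of 6 of 7 stayed with a common sum, beside 58.1% of all genes, at a median of 0.69. Psmd5 stood at 14.8 FPKM in KO against 7.43 in WT, 1.99-fold higher (1.87 to 2.12), Psmd9 2.98 and 1.14, 2.61-fold higher (2.23 to 3.06), and Psmd10 55.3 and 36.1, 1.53-fold higher (1.43 to 1.64). Psmg4 was the exception, with 10.2 and 19.8, 1.93-fold lower (1.58 to 2.37), from 153 and 286 reads. None of the 7 passed 2-fold after the addition of 1. In CD93-positive ILC3s 6 of 7 were higher, beside 54.4% of all genes, and with a common sum 3 of 7 were, beside 35.7%. Psmg2 and Psmg4 were the 2 members with the largest differences of all 48. Psmg2 had 9.87 in CD93-positive against 5.42 in CD93-negative cells, 1.82-fold higher (1.44 to 2.32), and Psmg4 had 16.8 and 9.63, 1.74-fold higher (1.27 to 2.41). Their reads were few, 201 and 111 for Psmg2 and 109 and 63 for Psmg4, and the intervals are wide. Psmd9 had 3.32 and 3.57, with an interval that spanned 1 (0.789 to 1.10).

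One name fits the rule without being a proteasome gene: Psmc3ip encodes a cofactor of meiotic recombination. It stood at 0.892 FPKM in CD93-positive against 1.54 in CD93-negative cells, from 19 and 33 reads, and its interval spanned 1 (0.311 to 1.05). In KO and WT it had 1.77 and 1.54.

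The 2 comparisons share no library, and their differences are set side by side only as values. Of the 45 members higher in CD93-positive ILC3s, 26 were lower and 19 higher in KO. Of all measured genes, whatever their value in the CD93 pair, 49.5% were lower and 50.5% higher in KO. With a common sum, 28 of the 48 members were higher in KO, beside 58.1% of all genes. Across the 48 genes Pearson's r was -0.23, which is a correlation across genes of 4 libraries, in which the members are not independent. Neither the joint count nor r was computed over all genes, so no relation between the comparisons is read from them.

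Other genes of the ubiquitin and proteasome pathway were read from a list of 35. Of the 34 measured in the CD93 pair, 23 were higher and 11 lower in CD93-positive ILC3s, with a median of 0.09, beside 54.4% of all genes higher and a median of 0.04. With a common sum the direction turned, with 13 higher and 21 lower and a median of -0.08, beside 35.7% and -0.12. Rps27a, which encodes a fusion of ubiquitin and a ribosomal protein, was the only one at least 2-fold apart, with 87.6 and 35.0 FPKM, 2.50-fold higher (2.31 to 2.72). Nfe2l1, the gene of NRF1, had 63.0 and 37.8, 1.67-fold higher (1.59 to 1.76), while Ddi2 and Ngly1, which encode the protease and the glycanase that process NRF1, had 8.08 and 9.46 and 4.67 and 5.92. Pomp, the maturation factor of the core, had 25.9 and 17.5, 1.48-fold higher (1.37 to 1.605), and Adrm1, a ubiquitin receptor of the cap, 31.7 and 26.7, 1.19-fold (1.11 to 1.28). The ubiquitin gene Ubb had a slightly lower value (608 and 651).

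In the KO and WT pair, 31 genes of this list were measured, with 9 higher and 22 lower in KO and a median of -0.43, beside 50.5% and 49.5% of all genes and a median of 0.01. With a common sum 12 were higher and 19 lower, at a median of -0.27, beside 58.1% of all genes higher and a median of 0.17. Ube3c, a ligase of the proteasome (3.14 and 0.936; 3.36-fold, 2.90 to 3.90), Nfe2l1 (2.56 and 0.627; 4.08-fold, 3.23 to 5.20) and Zfand2b (15.5 and 5.13; 3.02-fold, 2.61 to 3.51) were at least 2-fold higher. Zfand2a, a heat-shock inducible gene, was lower, with 1.57 and 5.10 (3.26-fold, 2.69 to 3.96). Pomp had 21.3 and 23.9 and Adrm1 3.15 and 4.36.

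NRF1 acts through antioxidant response elements, written here as TGACNNNGC and searched on both strands in the 250 bases before the RefSeq start sites (GRCm38.p6). Of the 41 members with an entry, 5 held it (12.2%), and of all 27025 genes with an entry 11.5% did, so the members' share is near the background. The 5 were Psmb5, Psmb6, Psmc6, Psmd12 and Psmd9. The stretch of Psmb5 is not shown, since it overlaps an annotated UTR. The sites of the other 4 are shown with up to 20 bases on each side, 5′ to 3′ on the strand of the gene and the motif in capitals, to show how they differ; in Psmc6 and Psmd12 the motif reads on the opposite strand. The site of Psmb6 lies at chr11:70525328-70525356, that of Psmc6 at chr14:45329577-45329625, that of Psmd12 at chr11:107479278-107479309 and that of Psmd9 at chr5:123228139-123228187.
Psmb6: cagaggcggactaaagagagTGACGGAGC
Psmc6: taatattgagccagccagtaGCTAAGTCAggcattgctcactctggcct
Psmd12: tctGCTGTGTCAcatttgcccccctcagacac
Psmd9: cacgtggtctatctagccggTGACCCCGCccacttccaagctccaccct

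In the CD93 pair Psmb5 had a difference of 0.53, Psmb6 of 0.43, Psmc6 of 0.15, Psmd12 of 0.43 and Psmd9 of -0.08. A CCAAT box was in 14 of the 41 (34.1%), beside 37.5% of all genes. The core of the interferon-stimulated response element was in 3 (7.32%), Psmb3, Psmd4 and Psmd9, beside 3.46% of all genes. Psmd9 held this and the antioxidant element. These matches of letters are descriptions, not sites of binding.

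The interferon and MHC class I list, 24 genes, was read beside the immunoproteasome. In the CD93 pair 11 were higher and 13 lower in CD93-positive ILC3s, beside 54.4% and 45.6% of all genes. The median was -0.05, beside 0.35 for the proteasome genes and 0.04 for all genes. With a common sum 7 were higher and 17 lower, at a median of -0.22, beside 35.7% of all genes higher and a median of -0.12. The subgroups of the list differed, here without the common sum. The 8 interferon-stimulated genes had a median of -0.39, with 7 lower, beside 45.6% of all genes. The 7 transcription factors of the interferon response had a median of -0.09, with 5 lower. The 6 genes of peptide transport and loading had a median of 0.27, with 5 higher, beside 54.4% of all genes, and 1 (Tap1) lower. The 3 MHC class I genes were all higher, with a median of 0.15. Of the whole list, Ifit3 alone was 2-fold apart, with 129 and 272 FPKM, 2.11-fold lower (2.01 to 2.21). Tap1, which encodes a peptide transporter subunit and lies next to Psmb9, had 116 and 119.6, 1.03-fold lower (1.00 to 1.07), beside the 1.07-fold of Psmb9. B2m, the light chain of MHC class I, had 5554 and 4719, 1.18-fold higher (1.16 to 1.19). In KO and WT, 23 of the list were measured, with 13 higher and 10 lower, beside 50.5% of all genes higher. With a common sum 17 were higher and 6 lower, beside 58.1% of all genes higher. Ifit3 (0.488 and 7.53) and Isg15 (12.7 and 33.6) were at least 2-fold lower in KO and Gbp2 (61.2 and 28.3) at least 2-fold higher, beside Tap1 with 5.88 and 2.92 and B2m with 3659 and 4099.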

How the data were processed

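The authors deposited FPKM values per gene, and both the per-library and the joint tables held equal values. Bowtie2, featureCounts from Subread, edgeR, DESeq2 and build mm10 are named, per the submitters' processing notes. The sources used here do not give their settings, order or versions, the annotation or the read length, so how reads with several matches were counted is unknown. The 2 tables were normalised separately. The members and gene lists were chosen with earlier results of these data known. Named genes were the immunoproteasome genes and their counterparts, the highest and lowest member of each role, members at least 2-fold apart, and list genes at least 2-fold apart plus Pomp, Adrm1, Nfe2l1, Tap1 and B2m; others were named after their values were seen, and some genes of the lists are not reported here.

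Reads were recovered as FPKM times union exon length (GENCODE M21) times the total at which most products were whole within 0.02 reads: 92.1% of KO, 91.9% of WT, 98.1% of CD93-positive and 98.2% of CD93-negative values above 0. Copies made by PCR count as separate reads, so intervals cover counting error only. Genes counted as measured from 1 FPKM in 1 library of the pair, and differences used a pseudocount of 1, which understates differences of low genes. No count model was fitted. Recovery and intervals were tested on simulated data. Analyses used Python 3.11.15 and scipy 1.17.1. Alternatives were pseudocounts of 0.1 and 5, other filters, fold limits of 1.5 and 3, 2 scalings and smaller member sets.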

Additional observations from a re-analysis of the deposited data

How the results depend on the processing

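No paired analysis was possible because the labels give no replicate numbers and each group has 1 library; for the same reason no library could be left out. In the CD93 pair, the median difference of the proteasome genes, 0.35, was 0.18 with a common sum per library, and that of the immunoproteasome genes, 0.46, was 0.28. The count of members at least 2-fold higher, 0, was 3 at 1.5-fold. In the KO and WT pair the common sum reversed the medians of all members (-0.04) and of the immunoproteasome genes (-0.14), to 0.11 and 0.019. Members at least 2-fold higher in KO, 1 as reported, were 3 with a pseudocount of 0.1, 0 with a pseudocount of 5, 4 with a common sum, 8 at 1.5-fold and 0 at 3-fold. Members at least 2-fold lower, 2 as reported, were 0 with a pseudocount of 5, 1 with an FPKM of at least 5, 7 at 1.5-fold and 0 at 3-fold. They were 1 without Psme2 and Psme2b and 1 without the 12 members that share at least 10% of their 50-mers, alternatives chosen after seeing the data. The KO minus WT difference in the Psmb10 share, 0.703 percentage points, was 1.66 with a pseudocount of 5. The median of the ubiquitin and proteasome list in the CD93 pair, 0.09, was -0.076 with a common sum, an alternative also added after seeing the data. Of 100 planned values 85 stayed within the counting spread (medians and shares) or within 1.5 times (counts), and of 24 added values 19 did. This rule does not look at the direction of a count. The members higher in KO, 22 of 48, were 28 with a common sum, and this value is among the 85. In the CD93 pair depth limits Psmc3ip most, with 52 reads over the pair, followed by Psmg3, Psmg4 and Psmg1.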
